A study of Danio rerio with 9 samples.

Results

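Zebrafish embryos exposed to 50 µg/L pentachlorophenol were compared with embryos exposed to 20 µg/L, to find which transcripts differed between the 2 doses. The comparison used the 3 Affymetrix arrays labelled with each dose, 6 of the 9 arrays of the series, chosen by their label alone. The other 3 arrays were controls kept in deionized water. All 3 groups were whole wild-type embryos of the Tuebingen strain in gastrulation, about 8 h after fertilisation. Eggs were collected over 30 min at 25 °C and placed in the solutions, embryos of the right stage were picked by hand, and 8 µg of total RNA was labelled with biotin for each array. The labels number the arrays 1 to 3 in each group and call them biological replicates, but give neither the number of embryos pooled nor whether clutches were kept apart. The p-values therefore measure the spread between these samples, which may be technical. In RNA of whole embryos, fewer cells of a type and less RNA per cell cannot be told apart.

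Pentachlorophenol is a chlorinated phenol that was used as a wood preservative and biocide. It is known as an uncoupler, a compound that carries protons across the inner mitochondrial membrane so that respiration no longer drives ATP synthesis. An early fish embryo lives on RNA and protein that the mother laid down in the egg. This maternal RNA is cleared in steps while the embryo's own genome is switched on, and many egg transcripts are scarce by gastrulation. Glycolysis genes respond to oxygen through the hypoxia-inducible factors, which prolyl hydroxylases such as the product of egln3 mark for degradation when oxygen is present.

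The labelled stage was checked against marker genes. Markers of mesoderm (tbxta, tbx16, noto), organizer (gsc, chrd), endoderm (sox17, sox32, gata5), neural plate (otx2b, sox3, six3b), enveloping layer (krt4, krt18a.1, cldne) and germ cells (ddx4, nanos3) lay above the background level on all 6 exposed arrays, as did hnf4a of the yolk syncytial layer, while mxtx2 was under it on 1 array of each dose. The background level of an array was the 95th percentile of its 17 tag control probe sets, and it lay between 50.6 and 114 signal units over the 9 arrays. Of the markers of later tissues, the muscle genes myog and pvalb2 and the neuron gene neurod1 were under it on all 6 exposed arrays, and the muscle gene mylpfa and the globin gene hbae3 on 5 of 6. The muscle actin gene actc1b was above it on 5 of 6. The median signal of the arrays was between 97.9 and 152, and was higher on the 3 arrays of 50 µg/L (142 to 152) than on those of 20 µg/L (97.9 to 131). Water replicate 3 stood apart, with a median Spearman correlation of 0.869 with the other arrays against 0.912 to 0.929 for the rest. It enters the test of the doses only through the estimate of the spread.

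Of the 40 gene lists described here, the list of maternal oocyte transcripts held the most genes that were higher at 50 than at 20 µg/L in the test. All lists were chosen with earlier results of these data known. The deadenylation cofactor btg4 rose 27.1-fold, the claudin cldnd 8.2-fold, the cyclin ccna1 7.41-fold, the kinase wee2 7.2-fold and the transcription factor nanog 5.03-fold. In the glycolysis list the aldolase gene aldocb and the lactate transporter gene slc16a3b rose. The median level of the glycolysis and hypoxia lists was high on all 3 arrays of 50 µg/L and also on 1 of the 3 arrays of 20 µg/L. The median log2 change of a gene between the doses was 0.54 in the glycolysis list and 0.48 in the hypoxia list. Over all genes it was 0.17, which became -0.21 with array medians set equal, and list medians moved with it. The forebrain gene otx2b and the mitochondrial import gene tomm40 fell, and no other probe set did. The test was limma's moderated test on log2(value + 1) over all 15502 probe sets that are not controls, fitted to all 9 arrays, and a probe set is said to have passed, to have risen or to have fallen where its Benjamini-Hochberg adjusted p was under 0.05.

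Between the doses 77 probe sets rose, which is 0.497% of those tested, and 2 fell, which is 0.0129%. At an unadjusted p under 0.05 there were 2160 (13.9%). In the same fit 20 µg/L against water gave 0 probe sets in either direction by limma, with a smallest adjusted p of 0.509, and 1138 (7.34%) at an unadjusted p under 0.05. For 50 µg/L against water 221 rose (1.43%) and 56 fell (0.361%), 1.79% in all. The comparisons share arrays, so their values are given side by side and not counted as support for each other. On all 79 the 3 arrays of one dose did not overlap the 3 of the other, as on 15.3% of all probe sets above and 7.04% below, and nothing is read from this since the same values made the calls. The 77 probe sets that rose had a median log2 change of 2.34 from 20 to 50 µg/L, of -0.16 from water to 20 µg/L and of 2.28 from water to 50 µg/L. The mean at 50 µg/L was above water for all 77, and the mean at 20 µg/L was below water for 48 of them. Over all genes the median change from water to 20 µg/L was -0.10. The 77 were selected for being higher at 50 than at 20 µg/L, which favours both directions, so nothing is read from these counts. Just inside the threshold stood trmt61a with an adjusted p of 0.0496, and just outside it ndel1b with 0.0505. The 79 probe sets hold 66 named genes, 21 of them in at least 1 of the 40 lists, and 9 probe sets have no single gene symbol.

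**Figure D1:**
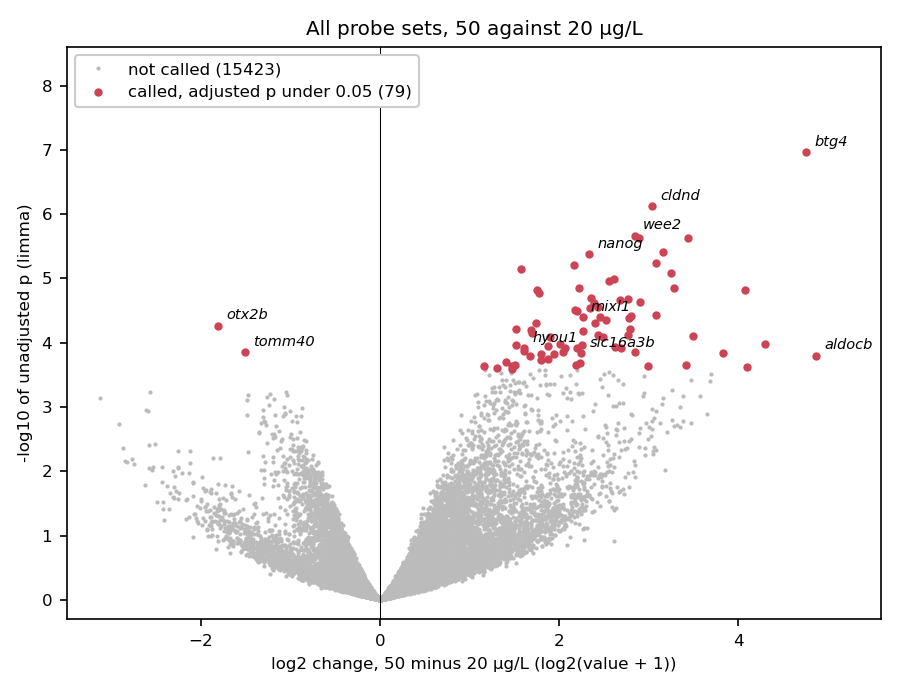
The log2 change from 20 to 50 µg/L (x axis) against the negative log10 of the unadjusted limma p (y axis) for each of the 15502 probe sets. The 79 red points passed the adjusted threshold, and 77 of them lie to the right of 0.

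The number of calls depended on single arrays. Leaving out 20 µg/L replicate 1 or replicate 2 left 1 call, btg4, and leaving out 50 µg/L replicate 1 or replicate 2 left 2, btg4 and cldnd, so every other call named here was lost without any of those 4 arrays. Without 20 µg/L replicate 3 there were 305 calls (278 up), without water replicate 2 there were 121 and without water replicate 3 there were 250, while without water replicate 1 or 50 µg/L replicate 3 there were 72 and 90. With no intensity trend in the test limma made 0 calls, with 1911 at an unadjusted p under 0.05, and with array medians set equal it made 14. Of the 27 called genes that were followed through each setting, aldocb, bin1b, hsd3b7, zgc:114123, oxr1b, slbp2, slc16a3b, birc5b and asz1 did not pass with quantile normalization, and hsd3b7 and slbp2 did not with the format of the deposited values as a block. Among the 77 probe sets that rose, 20 µg/L replicate 3 was the highest array of its dose for 64 (83.1%, against 43.8% of all probe sets), and 50 µg/L replicate 3 the lowest of its dose for 65 (84.4%, against 35.6%). Both arrays, like water replicate 3, were deposited with more decimals than the rest. The labels do not say whether this format goes with a batch, and its part in these positions was not tested.

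**Figure D2:**
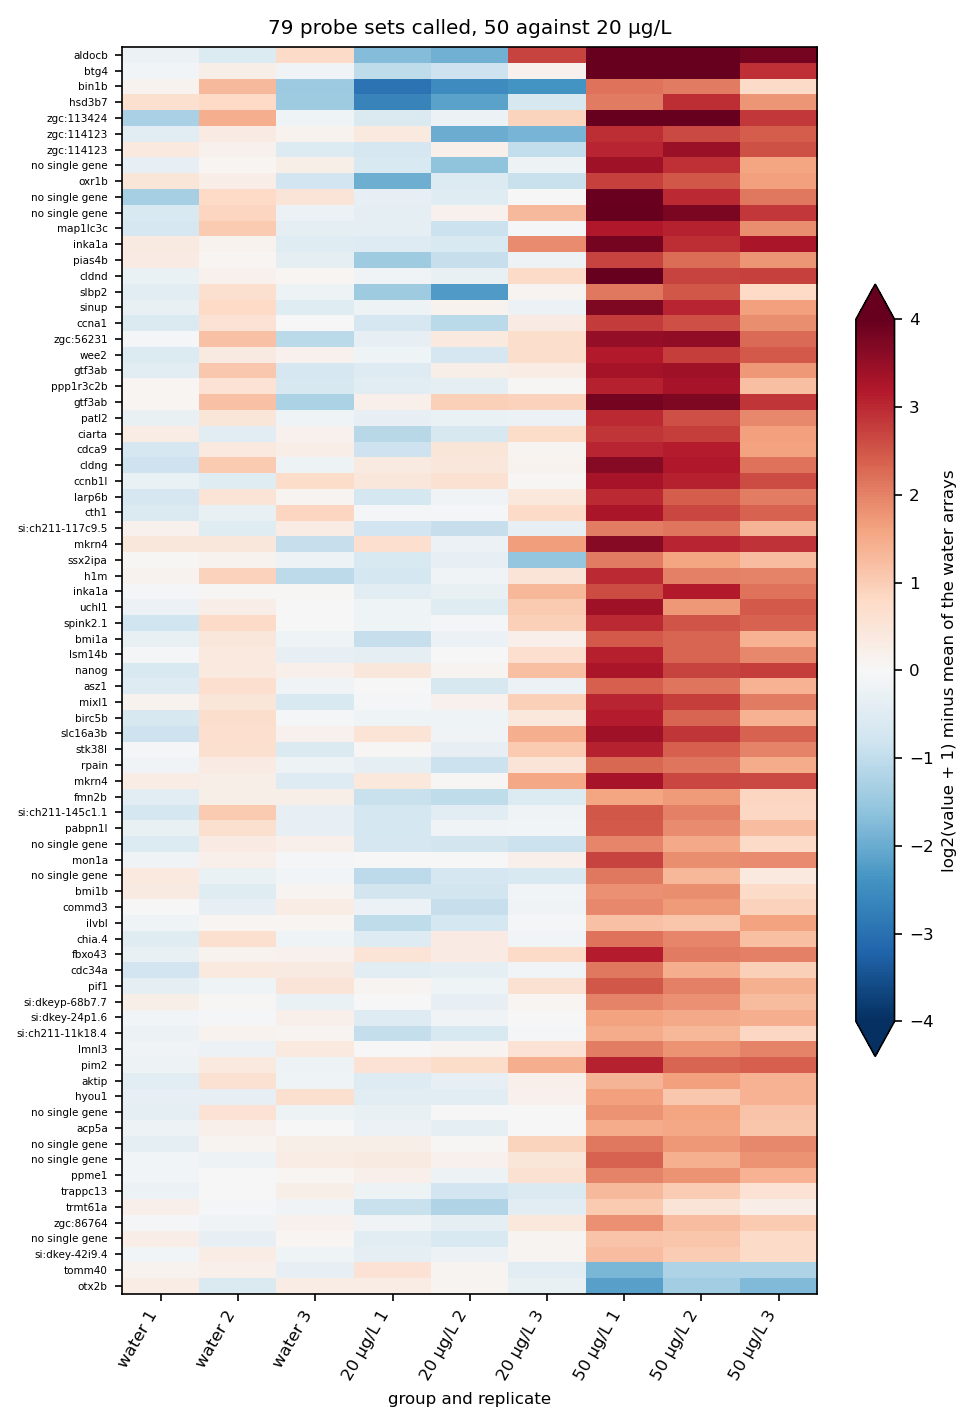
Level of the 79 called probe sets (rows, largest rise at the top) on each of the 9 arrays (columns, named by group and replicate), as log2(value + 1) minus the mean of the 3 water arrays. The 50 µg/L arrays are red for 77 rows and blue for tomm40 and otx2b, and 50 µg/L replicate 3 is paler than the other 2 arrays of its dose in most rows.

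Of 47 measured genes in a list of maternal oocyte transcripts, 10 rose and 0 fell between the doses, against 0.694% and 0.0227% of all 8793 genes. The list was chosen with earlier results of these data known, so these shares describe it and are no independent test. On 29 of the 47 the 3 arrays of 50 µg/L lay above the 3 of 20 µg/L without overlap, against 18.1% of all genes, and on 0 they lay below, against 8.27%. The list median was a log2 change of 1.09, and over all genes it was 0.17. The median log2 level of the list was 7.57, 8.26 and 8.08 on the water arrays, 8.04, 7.98 and 8.33 at 20 µg/L and 9.68, 9.28 and 9.25 at 50 µg/L. Every array of 50 µg/L was above every other array, and 2 of the 3 arrays of 20 µg/L were within the range of water, the other just above it. The median change from water was -0.11 at 20 µg/L and 0.97 at 50 µg/L, where 15 of the 47 rose against 1.9% of all genes. Without 20 µg/L replicate 1 or 2 the count of 10 became 1, and without 50 µg/L replicate 1 or 2 it became 2, while the list median stayed between 0.93 and 1.13 without any 1 array.

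The largest of these changes was that of btg4, whose protein in mouse recruits the deadenylases that clear maternal mRNA. The btg4 signal was 106, 135 and 104 on the water arrays, 55.6, 63.3 and 129 on the 20 µg/L arrays and 3250, 3366 and 862 on the 50 µg/L arrays. All 3 arrays of 50 µg/L were far above the 6 others, replicate 3 the lowest of them, and 2 of the 20 µg/L arrays were under the background level. The log2 change was 4.76 (SE 0.49, limma adjusted p = 0.00169), a fold of 26.5 with dim values raised to the background level. It passed without any 1 array, with a highest adjusted p of 0.0348. From water to 20 µg/L the change was -0.56.

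The claudin gene cldnd encodes a protein of tight junctions. The cldnd signal was 332, 447 and 422 on the water arrays, 362, 325 and 671 on the 20 µg/L arrays and 6374, 2598 and 2654 on the 50 µg/L arrays. The doses did not overlap, and 50 µg/L replicate 1 was the highest. It rose by 3.04 (SE 0.37, adjusted p = 0.00582), and its adjusted p was at most 0.0804 without any 1 array, above 0.05 without 20 µg/L replicate 1 or 2.

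A pair of cell cycle genes also rose. The kinase gene wee2, which in mammals inhibits the cell cycle kinase Cdk1 in oocytes, had signals of 161, 306 and 265 on the water arrays, 207, 148 and 387 on the 20 µg/L arrays and 2138, 1593 and 1308 on the 50 µg/L arrays. The arrays of 50 µg/L were all above the rest, and the log2 change was 2.85 (SE 0.37, adjusted p = 0.0074). Of its 5 probe sets the brightest passed, and the other 4, all of them dimmer, changed by 2.01 to 2.97 with adjusted p of 0.103 to 0.19. Cyclin A1, encoded by ccna1 and found in germ cells and early embryos, had ccna1 signals of 406, 311 and 816 at 20 µg/L and 4550, 3887 and 2379 at 50 µg/L and rose by 2.89 (adjusted p = 0.0074). The highest adjusted p without 1 array was 0.113 for both genes.

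Genes of RNA-binding proteins and a linker histone made up the other 5 of the 10. The zinc finger gene cth1 rose by 2.56 and the La-related gene larp6b by 2.62, both with an adjusted p of 0.0129. The gene lsm14b, whose mouse protein represses translation in oocytes, rose by 2.34 (adjusted p = 0.0177). Signals of slbp2, whose Xenopus protein binds stored histone mRNA in oocytes, were 36.8, 20 and 107 at 20 µg/L and 435, 570 and 176 at 50 µg/L, with 2 of the 20 µg/L arrays under the background level, and it rose by 3.00 (adjusted p = 0.0472), or 4.7-fold with dim values raised. The linker histone gene h1m, which is maternal and later marks germ cells, had signals of 880, 1300 and 2082 at 20 µg/L and 11349, 5856 and 5745 at 50 µg/L and rose by 2.44 (SE 0.45, adjusted p = 0.0272). No array of 20 µg/L reached any of 50 µg/L for these genes.

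Maternal factors that switch on the zygotic genome gave different results. The homeodomain factor gene nanog had signals of 496, 989 and 877 on the water arrays, 1040, 809 and 1729 on the 20 µg/L arrays and 7240, 4964 and 5178 on the 50 µg/L arrays. Each array of 50 µg/L was above each other array, and nanog rose by 2.33 (SE 0.32, adjusted p = 0.00929, at most 0.131 without any 1 array). Its partner pou5f3, among the brightest genes on the array, stood at 17657, 20175 and 15964 at 20 µg/L and 18509, 11336 and 19125 at 50 µg/L, which overlapped, with a change of -0.17 (adjusted p = 0.83; 95% interval -0.74 to 0.41) that was positive with quantile normalization. In the list of 31 genome activation factors nanog was the only gene called, where 0.694% of all genes rose, and the list median was 0.01 (-0.01 with quantile normalization).

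**Figure D3:**
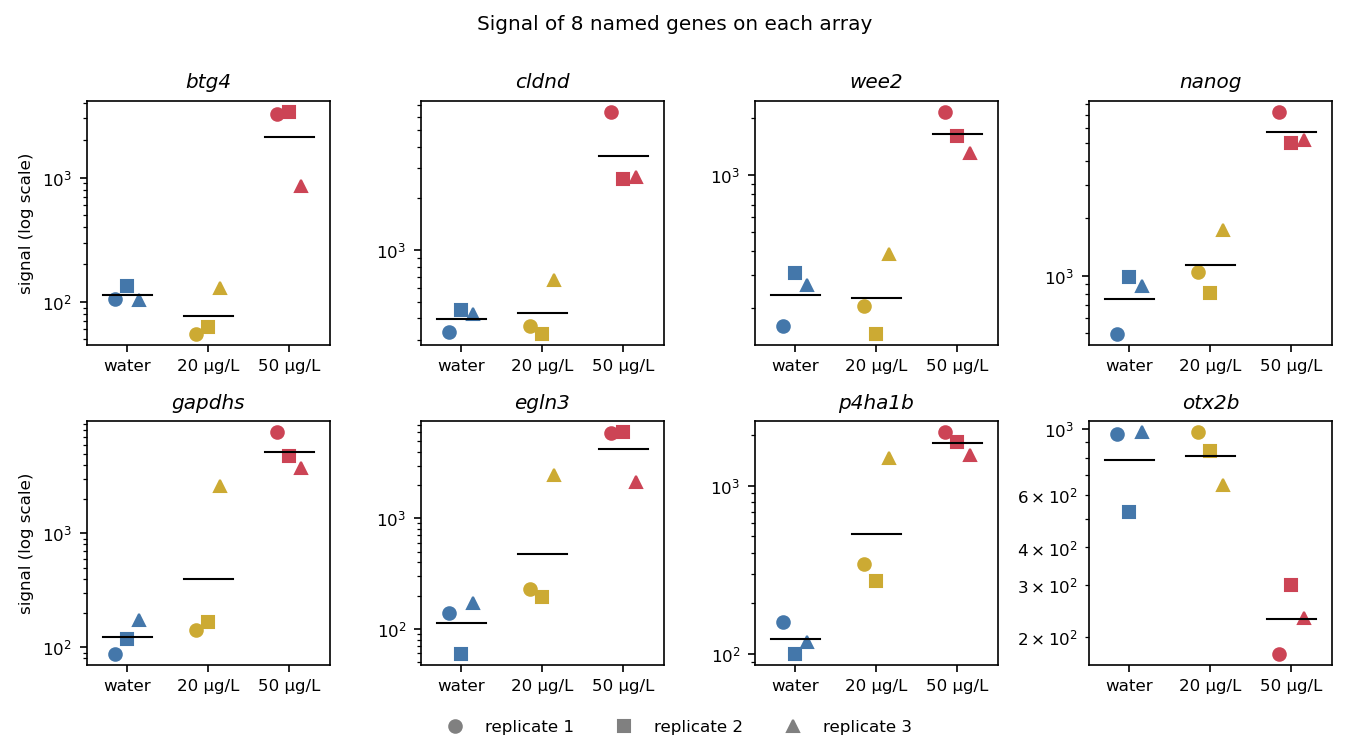
Deposited signal (log axis) of 8 genes on each array, by group (x axis); circles, squares and triangles are replicates 1, 2 and 3, and the bar is the mean on the log2(value + 1) scale. For btg4, cldnd, wee2 and nanog the 50 µg/L arrays stand above all others, for gapdhs, egln3 and p4ha1b 20 µg/L replicate 3 is also high, and for otx2b the 50 µg/L arrays are lowest.

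The list of germ plasm and primordial germ cell genes shares h1m and nanog with the maternal list, and nanog also with the list of genome activation factors. Of 24 measured, 3 rose (h1m, nanog and asz1) against 0.694% of all genes and 0 fell, and 13 of the 24 lay above without overlap, against 18.1% of all genes. The list median was 1.08, and the list's median log2 level was 7.80, 8.30 and 8.09 in water, 7.24, 7.64 and 7.69 at 20 µg/L and 8.47 or more on each array of 50 µg/L. On the deposited scale the groups did not overlap, with 20 µg/L below water and 50 µg/L above it. The median level of all genes was 7.72, 7.67 and 7.74 in water and 7.55, 7.55 and 7.82 at 20 µg/L. From water to 20 µg/L the median change of the list was -0.17, against -0.10 over all genes, so no fall at 20 µg/L is read from these levels. The gene asz1, needed for the germline piRNA pathway in mouse, had signals of 132, 84 and 112 at 20 µg/L and 690, 589 and 348 at 50 µg/L and rose by 2.27 (adjusted p = 0.0252, at most 0.274 without any 1 array). The other egg and germ cell markers checked did not pass. The germ plasm organizer buc stood at 50.7, 68 and 85.7 at 20 µg/L and 397, 380 and 203 at 50 µg/L, higher at 50 µg/L on every array, with a change of 2.21 and an adjusted p of 0.0672. The germ cell helicase ddx4 and the egg coat gene zp3b changed by 0.13 (adjusted p = 0.906) and 0.27 (adjusted p = 0.722), and their doses overlapped. The germ cell gene nanos3 stood at 320, 308 and 285 at 20 µg/L and 563, 938 and 437 at 50 µg/L, without overlap, with a change of 1.01 (adjusted p = 0.194). The count of 3 in the germ plasm list became 8 without 20 µg/L replicate 3, 6 without water replicate 3, and 0 without replicate 1 or 2 of either dose.

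Of the 66 genes called, 45 were in none of the lists. The 5 described next were picked after their values were seen, for known roles in eggs. They are patl2, pabpn1l, fbxo43 and fmn2b, which act in oocytes in mouse, and gtf3ab, whose Xenopus counterpart binds 5S ribosomal RNA in oocytes. The gtf3ab signal was 353, 595 and 611 at 20 µg/L and 5008, 5254 and 1669 at 50 µg/L, a change of 2.80 (adjusted p = 0.0199), and its second probe set passed too. The pabpn1l and fbxo43 changes were 2.18 (adjusted p = 0.0182) and 1.87 (adjusted p = 0.0409). For patl2 and fmn2b all 3 arrays of 20 µg/L were under the background level, and they rose at least 4.89-fold and at least 3.95-fold (adjusted p = 0.016 and 0.0341). Of the 2 probe sets of fmn2b only the brighter passed.

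Among the 12 genes with a symbol that rose most, 7 belonged to no list and their signals ranged from bright to dim. The uncharacterized gene zgc:113424 had signals of 78.2, 527 and 171 on the water arrays, 128, 164 and 356 on the 20 µg/L arrays and 4450, 6036 and 1368 on the 50 µg/L arrays and rose by 4.08 (SE 0.64, adjusted p = 0.014). The autophagy gene map1lc3c, of the LC3 family, had signals of 405, 1330 and 485 on the water arrays, 483, 354 and 602 on the 20 µg/L arrays and 5934, 5404 and 2301 on the 50 µg/L arrays and rose by 3.16 (SE 0.44, adjusted p = 0.00929). For both genes the arrays of 50 µg/L were above all others. The gene inka1a, which encodes an inhibitor of p21-activated kinase, stood at 175, 165 and 923 at 20 µg/L and 3568, 1933 and 2399 at 50 µg/L and rose by 3.09 (adjusted p = 0.0199), and its second probe set rose by 2.44. The SUMO ligase gene pias4b stood at 34.8, 49.4 and 82.7 at 20 µg/L and 618, 452 and 325 at 50 µg/L, with 2 of the 20 µg/L arrays under the background level, and rose by 3.08 (adjusted p = 0.0105). The highest adjusted p without 1 array was between 0.131 and 0.208 for these 4 genes.

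The other large rises among these 12 were of dim genes. For the membrane-bending protein gene bin1b, the sterol dehydrogenase gene hsd3b7, the oxidation resistance gene oxr1b and the probe set of the uncharacterized gene zgc:114123 that changed most, all 3 arrays of 20 µg/L were under the background level. They rose with adjusted p of 0.0337, 0.0476, 0.0472 and 0.036, and none of the 4 passed with dim values raised to the background level. With values so raised the folds were 1.45, 1.36 and 1.52, and at least 1.81 for zgc:114123. For bin1b, hsd3b7 and oxr1b 1 array of 50 µg/L was under that level and raised too, so their folds are no lower bounds. Signals of oxr1b, for example, were 4.5, 13.6 and 10.6 at 20 µg/L and 141, 120 and 66.1 at 50 µg/L, which sets no measured level at the lower dose. Of the 3 other probe sets of zgc:114123, 1 also rose, under the background level on all 3 arrays of 20 µg/L, and the 2 that were above it on some of those arrays changed by 1.39 and 1.37 (adjusted p = 0.296 and 0.254).

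The median level of glycolysis genes was higher on the arrays of 50 µg/L, and on 20 µg/L replicate 3, than on the others. Of 37 genes in the list of glycolysis and glucose uptake, 2 rose between the doses and 0 fell, against 0.694% and 0.0227% of all genes. Of the 37, 9 lay above without overlap and 3 below, against 18.1% and 8.27%. The median level of the list was 6.47, 6.67 and 6.76 in water, 6.08, 6.25 and 8.35 at 20 µg/L and 9.17, 9.16 and 8.15 at 50 µg/L. On this scale 20 µg/L replicate 3 was above 50 µg/L replicate 3, and the other 2 arrays of 20 µg/L were below those of water. The count of 2 that rose became 8 without 20 µg/L replicate 3, 5 without water replicate 3, 3 without water replicate 2, 1 without water replicate 1, and 0 without replicate 1 or 2 of either dose. The median of the changes was 0.54 between the doses, 0.18 from water to 20 µg/L and 0.33 from water to 50 µg/L, where 10 of the 37 rose against 1.9% of all genes. The median level of the list thus moved more than its typical gene, and its steps do not give the size of a typical change.

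The hypoxia list set the same array apart. Of its 27 genes 0 rose and 0 fell between the doses, the smallest adjusted p being that of egln3. The median change was 0.48, against 0.17 over all genes. Its median level was 7.12, 6.15 and 6.67 in water, 6.71, 6.57 and 8.64 at 20 µg/L and 9.14, 8.06 and 8.99 at 50 µg/L. Here too the median level moved more than the typical gene, since the median change from water to 50 µg/L was 0.81. Replicate 3 of 20 µg/L was more than 2-fold above both other arrays of its dose for 8 of the 27 hypoxia genes and for 11 of the 37 glycolysis genes, against 7.23% of all genes. The same count was 0 and 1 for replicate 1, and 1 and 2 for replicate 2. This was not particular to the 2 lists. Replicate 3 of 20 µg/L was as high for 10 of 49 heat shock genes and 6 of 31 aryl hydrocarbon receptor genes. In the germ plasm list it was so for 4 of 24, and in the oxidative phosphorylation list for 0 of 87. These counts of single high arrays were made after the values were seen. Without that array, 8 glycolysis genes and 4 hypoxia genes rose, against 2.15% of all genes, and 0 fell, against 0.239%. That array was singled out because it was high at these genes, so leaving it out raises their change by construction. Nothing is read from these counts, nor from the values of single genes given below without it. Without 50 µg/L replicate 3, 1 hypoxia gene rose.

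**Figure D4:**
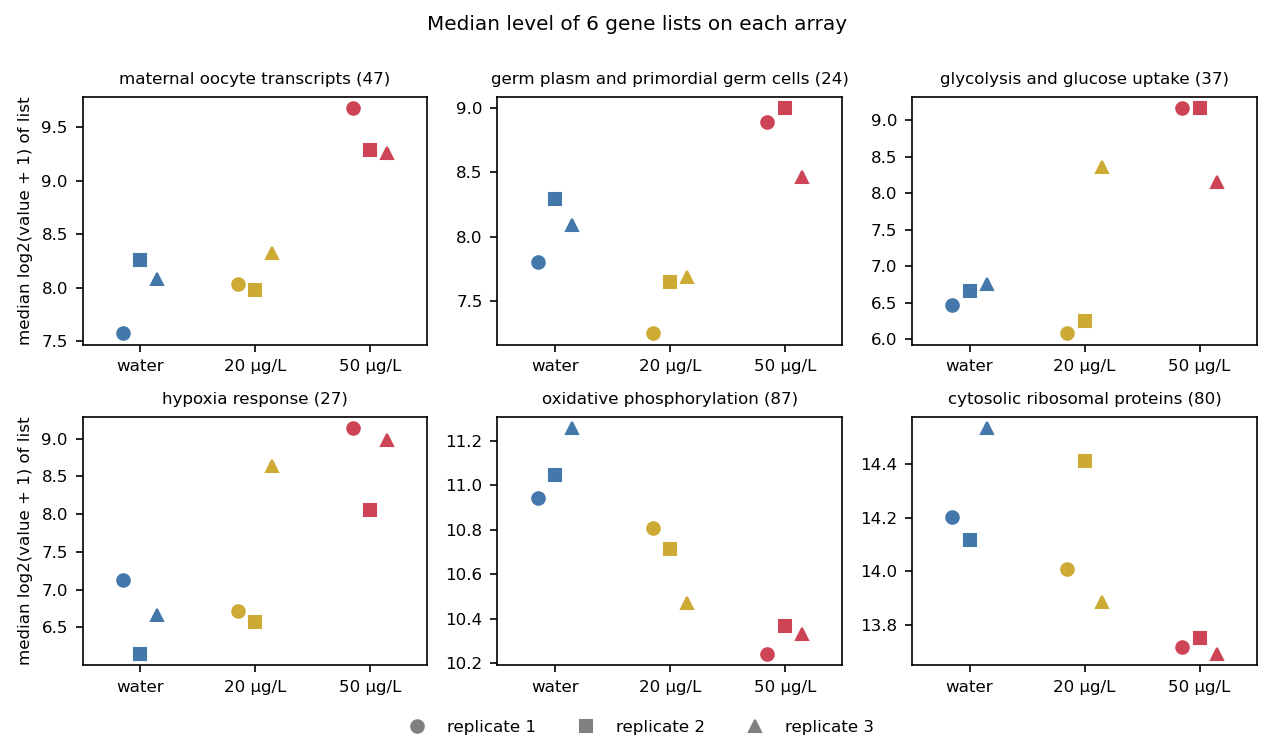
Median log2(value + 1) over the genes of 6 lists on each array (y axis) by group (x axis), with the number of genes measured in brackets and replicates 1, 2 and 3 as circles, squares and triangles. In the maternal list the 50 µg/L arrays stand clear of all others, and in the glycolysis and hypoxia lists 20 µg/L replicate 3 lies among them. The median level of the glycolysis and hypoxia lists moved more than their typical gene changed.

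The same array was high at single genes. Signals of gapdhs, which encodes a glyceraldehyde-3-phosphate dehydrogenase, were 87.8, 118 and 175 on the water arrays, 143, 168 and 2575 on the 20 µg/L arrays and 7680, 4782 and 3716 on the 50 µg/L arrays. The doses did not overlap, but 20 µg/L replicate 3 was far above the other 2 arrays of its dose. The change was 3.70 (SE 0.78, adjusted p = 0.0534) between the doses, 1.69 from water to 20 µg/L and 5.39 from water to 50 µg/L. Without 20 µg/L replicate 3 it was 5.04 (adjusted p = 7.66e-05), and it also passed without water replicate 3 and under 7 of 12 other settings of the test.

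Signals of egln3, which encodes an oxygen-sensing prolyl hydroxylase, were 138, 59.5 and 173 on the water arrays, 228, 193 and 2449 on the 20 µg/L arrays and 5966, 5991 and 2147 on the 50 µg/L arrays. Here 20 µg/L replicate 3 was above 50 µg/L replicate 3, so that the doses overlapped, and the change of 3.16 had an adjusted p of 0.0768, or 4.34 with 0.00149 without that array. The p4ha1b signal, of a collagen prolyl hydroxylase subunit, was 155, 100 and 119 on the water arrays, 341, 270 and 1468 on the 20 µg/L arrays and 2076, 1820 and 1528 on the 50 µg/L arrays. All 3 arrays of 20 µg/L were above those of water and below those of 50 µg/L, with changes of 2.06 from water to 20 µg/L and 1.80 from 20 to 50 µg/L (adjusted p = 0.116, and 0.00231 without 20 µg/L replicate 3).

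The insulin-like growth factor binding protein gene igfbp1a, which hypoxia induces in zebrafish, stood at 124, 119 and 984 at 20 µg/L and 4017, 2684 and 757 at 50 µg/L, overlapping, with a change of 3.04 (adjusted p = 0.0844, and 0.00614 without 20 µg/L replicate 3; it also passed without 50 µg/L replicate 3). Lactate dehydrogenase A, encoded by ldha, stood at 37.9, 65.5 and 325 at 20 µg/L and 1068, 1835 and 283 at 50 µg/L, also overlapping (3.12, adjusted p = 0.103, and 0.0203 without that array). The gene pfkfb3, whose enzyme makes the sugar phosphate that switches phosphofructokinase on, was at 62.8, 9.9 and 335 at 20 µg/L and 574, 714 and 185 at 50 µg/L with an adjusted p of 0.256, and 0.0517 without that array. At 20 µg/L ldha was under the background level on 2 arrays and pfkfb3 on 1. In the probe sets whose signals are given for these 3 genes, replicate 3 of 20 µg/L was above replicate 3 of 50 µg/L. The other pfkfb3 probe set did not share this order, with replicate 3 at 114 at 20 µg/L and 131 at 50 µg/L. It changed by 3.32 (adjusted p = 0.108), without overlap. Of its 20 µg/L arrays 2 were under the background level, and its fold was 2.79 with dim values raised.

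Both members of the glycolysis list that passed were higher on every array of 50 µg/L. The aldolase gene aldocb had signals of 21.9, 17.6 and 45.4 on the water arrays, 7.2, 6.2 and 176 on the 20 µg/L arrays and 894, 764 and 379 on the 50 µg/L arrays, with all 3 water arrays and 2 of the 20 µg/L arrays under the background level. It rose by 4.87 (SE 0.96, adjusted p = 0.0379), 7.22-fold with dim values raised, and its other probe set changed by 3.03 (adjusted p = 0.129). The lactate transporter gene slc16a3b had signals of 447, 274 and 838 at 20 µg/L and 3191, 2213 and 1563 at 50 µg/L and rose by 2.25 (SE 0.44, adjusted p = 0.036). The highest adjusted p of both without 1 array was 0.318. Glycolysis genes that are bright in all embryos did not pass, gapdh changing by 0.24 (95% interval -0.34 to 0.82) and aldoaa by -0.07 (-0.55 to 0.41), and each of these signs turned under 1 of the scalings tried. The gene pfkfb4b was lower at 50 µg/L, at 4869, 4825 and 2908 at 20 µg/L and 2079, 2834 and 2817 at 50 µg/L, with a change of -0.68 (adjusted p = 0.258).

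Genes of mitochondrial respiration had a lower median level at 50 µg/L, and none of them passed the test. Of 87 genes of oxidative phosphorylation 0 rose and 0 fell (lowest adjusted p 0.154), 29 lay below without overlap and 7 above, against 8.27% and 18.1% of all genes, and the median change was -0.33 between the doses, -0.31 from water to 20 µg/L and -0.61 from water to 50 µg/L, where 10 of the 87 fell against 0.466% of all genes. The list level was 10.94, 11.05 and 11.26 in water, 10.81, 10.71 and 10.47 at 20 µg/L and 10.24, 10.37 and 10.33 at 50 µg/L. On the deposited scale the groups followed the dose without overlap. The median level of all genes also differed between arrays, at 7.72, 7.67 and 7.74 in water and 7.55, 7.55 and 7.82 at 20 µg/L. Set against these levels, the list overlapped between water and 20 µg/L, so a step between those 2 groups is not read from this order. Other lists of bright genes had similar medians between the doses, -0.35 for cytosolic ribosomal proteins and -0.34 for splicing and RNA-binding genes. List medians also moved with the scaling, as described below, and whether signal strength underlies this order was not tested. The ATP synthase gene atp5mc1 stood at 5911, 6543 and 11449 on the water arrays, 7031, 6594 and 3978 on the 20 µg/L arrays and 2827, 2845 and 2994 on the 50 µg/L arrays, a change of -0.98 between the doses (adjusted p = 0.158). The gene cox7a2l, related to a cytochrome oxidase subunit, stood at 4434, 4351 and 2284 at 20 µg/L and 1561, 2250 and 1994 at 50 µg/L, also without overlap (-0.88, adjusted p = 0.216). The brightest genes of the list, cox6b2 and cox7c, changed by -0.38 and -0.54 (adjusted p = 0.51 and 0.388).

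The gene that fell in these lists was tomm40, which encodes the channel through which proteins enter the organelle. The tomm40 signal was 1915, 1960 and 1357 on the water arrays, 2544, 1852 and 1262 on the 20 µg/L arrays and 489, 725 and 727 on the 50 µg/L arrays. Each array of 50 µg/L was below the other 6, and the change was -1.51 (SE 0.29, adjusted p = 0.036), which without 1 array had an adjusted p of up to 0.318. It was the 1 gene called of 42 in the list of mitochondrial import, chaperones and uncoupling (median -0.04), where 0.0227% of all genes fell. The tricarboxylic acid cycle (35 genes, median -0.06), mitochondrial ribosomal proteins (59, -0.01) and the pentose phosphate pathway (7, -0.33) had 0 calls.

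Lists of the protein synthesis and turnover machinery had negative medians, against an overall shift of 0.17 the other way. The medians were -0.35 for 80 cytosolic ribosomal proteins, -0.35 for 64 genes of ribosome biogenesis, -0.28 for 68 translation factors, -0.36 for 77 genes of proteasome and ubiquitin, -0.34 for 116 splicing and RNA-binding genes and -0.28 for 45 histone and chromatin genes. In these 6 lists 3 genes rose, uchl1, lsm14b and h1m, and 0 fell, where over all genes 0.694% rose. The ubiquitin hydrolase gene uchl1 stood at 469, 378 and 1095 at 20 µg/L and 5613, 1778 and 2912 at 50 µg/L and rose by 2.41 (adjusted p = 0.022, at most 0.208 without any 1 array). Among the brightest genes, rps4x changed by -0.39, rps2 by -0.28, the nucleolar genes npm1a and ncl by -0.37 and -0.45, with adjusted p between 0.489 and 0.708. The median of all genes moved with the scaling, from 0.17 to -0.01 with quantile normalization and -0.21 with array medians set equal, and the list medians moved with it, while the 6 listed here were negative under all 3.

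Of 54 genes in the endoplasmic reticulum list, 18 lay above without overlap and 6 below, against 18.1% and 8.27% of all genes. The list median was 0.45, against 0.17 over all genes. Between the doses 1 of the 54 rose, against 0.694% of all genes. The count was 4 without 20 µg/L replicate 3, 3 without water replicate 3, and 0 without 50 µg/L replicate 3 or replicate 1 or 2 of either dose. That gene was hyou1, a chaperone of the reticulum named for its induction by low oxygen, at 585, 582 and 1152 on the water arrays, 538, 547 and 824 on the 20 µg/L arrays and 2285, 1555 and 1941 on the 50 µg/L arrays. The doses did not overlap, the arrays of 20 µg/L lay within or just below the range of water, and hyou1 rose by 1.61 (SE 0.31, adjusted p = 0.0341, at most 0.318 without any 1 array). Other chaperones of the reticulum were higher without passing, hspa5 at 1023, 668 and 1117 at 20 µg/L and 2738, 2290 and 1368 at 50 µg/L (1.16, adjusted p = 0.121) and hsp90b1 at 285, 422 and 389 at 20 µg/L and 1205, 412 and 663 at 50 µg/L (0.94, adjusted p = 0.326). The phosphatase subunit gene ppp1r15a, which acts after endoplasmic reticulum stress, stood at 235, 311 and 1269 at 20 µg/L and 1598, 866 and 938 at 50 µg/L, with 20 µg/L replicate 3 above 2 of the 50 µg/L arrays (1.27, adjusted p = 0.282, and 0.018 without that array). From water to 20 µg/L the changes were -0.23 for hyou1, 0.08 for hspa5, 0.93 for hsp90b1 and 1.11 for ppp1r15a (adjusted p = 0.885, 0.968, 0.666 and 0.676). For hsp90b1 and ppp1r15a the mean was thus higher at 20 µg/L than in water too.

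Cytosolic heat shock genes had 0 calls of 49 and a median of -0.24. Their brightest members hspb1 and hspa8 changed by -0.18 and -0.41 (adjusted p = 0.818 and 0.516). In the list of oxidative stress and glutathione 1 of 37 genes rose, the dim oxr1b described above, against 0.694% of all genes. In all, 13 of the 37 lay above without overlap, against 18.1% of all genes, and the median of 0.36 became -0.02 with array medians set equal. The glutathione synthesis gene gclc stood at 353, 314 and 487 at 20 µg/L and 893, 930 and 679 at 50 µg/L, higher on every array of 50 µg/L, with a change of 1.13 (adjusted p = 0.0911). The aryl hydrocarbon receptor list had 0 calls of 31, and its target cyp1a stood at 27.1, 24.6 and 86.7 at 20 µg/L and 156, 58.5 and 78.6 at 50 µg/L, near the background level (1.19, adjusted p = 0.417).

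In the list of 66 cyclins and mitotic regulators 3 rose, ccna1, wee2 and the survivin gene birc5b, and 0 fell, against 0.694% and 0.0227% of all genes, and the median of 0.09 became -0.29 with array medians set equal. The gene birc5b, of a family that acts in chromosome segregation and cell survival, stood at 258, 262 and 389 at 20 µg/L and 2579, 1465 and 765 at 50 µg/L and rose by 2.26 (adjusted p = 0.0337, at most 0.311 without any 1 array). It was also the 1 gene called of 46 in the list of growth arrest and apoptosis, against 0.694% of all genes. In that list the p53 target mdm2 stood at 1171, 595 and 974 at 20 µg/L and 1648, 1068 and 1441 at 50 µg/L (0.63, adjusted p = 0.389). DNA replication had 0 calls of 52 and a median of 0.10, against 0.17 over all genes. Of the 52, 12 lay above without overlap and 7 below, against 18.1% and 8.27% of all genes. In that list pcna, the clamp of the replicating polymerase, stood at 20512, 28053 and 15690 at 20 µg/L and 13293, 14093 and 15218 at 50 µg/L (-0.55, adjusted p = 0.371).

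Patterning genes of the gastrula were called at otx2b and mixl1. The forebrain and midbrain gene otx2b had signals of 962, 524 and 972 on the water arrays, 973, 844 and 649 on the 20 µg/L arrays and 176, 299 and 232 on the 50 µg/L arrays. Every array of 50 µg/L was below every other array and 20 µg/L lay within the range of water or just beside it, and otx2b fell by 1.81 on the log2 scale (SE 0.32, adjusted p = 0.0234, at most 0.236 without any 1 array). It was the only call in the lists of the neural plate (71 genes, median -0.11) and of the dorsal organizer (37 genes, 0.06, and -0.32 with array medians set equal), where 0.0227% of all genes fell. The hindbrain border gene gbx1 stood at 1565, 1220 and 1756 on the water arrays, 1039, 930 and 915 at 20 µg/L and 402, 618 and 461 at 50 µg/L. Every array of 50 µg/L was below those of 20 µg/L, with a change of -0.98 (adjusted p = 0.101). Unlike for otx2b, all 3 arrays of 20 µg/L were also below those of water, with a change of -0.64 (adjusted p = 0.653).

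In the endoderm and Nodal list 1 of 35 genes rose, mixl1, a homeobox target of Nodal signals, against 0.694% of all genes. The count was 4 without 20 µg/L replicate 3, against 2.15% of all genes, and 4 without water replicate 3. The mixl1 signal was 174, 219 and 103 on the water arrays, 152, 180 and 310 on the 20 µg/L arrays and 1326, 1070 and 668 on the 50 µg/L arrays, without overlap, and the change was 2.26 (SE 0.39, adjusted p = 0.0199, at most 0.236 without any 1 array). The endoderm factor sox17 changed by -0.06 (adjusted p = 0.97), a sign that turned in several fits. The organizer gene gsc stood at 859, 905 and 1632 at 20 µg/L and 3341, 3863 and 1723 at 50 µg/L (1.38, adjusted p = 0.0952, and 0.0362 without 20 µg/L replicate 3; it also passed without water replicate 3 or 50 µg/L replicate 3), while the organizer gene chrd, a BMP antagonist, changed by -0.56 (adjusted p = 0.56).

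The BMP list had 0 calls of 52, with a median of 0.03 (-0.12 with quantile normalization). The ventral repressor gene vent stood at 190, 340 and 488 at 20 µg/L and 1362, 637 and 1000 at 50 µg/L (1.59, adjusted p = 0.171) and its relative vox, among the bright genes, at 10769, 14382 and 15322 at 20 µg/L and 24120, 19979 and 19100 at 50 µg/L (0.65, adjusted p = 0.256), each higher at 50 µg/L without overlap, while the second vent probe set, with a change of 1.53 (adjusted p = 0.219), overlapped. The ligand gene bmp4 and the target gene id1 changed by 0.62 and 0.21 (adjusted p = 0.608 and 0.785), id1 with a negative sign when array medians were set equal. In the Notch and neurogenesis list, also with 0 calls of 40, hes6 stood at 5608, 4689 and 4622 at 20 µg/L and 2696, 2322 and 3074 at 50 µg/L, lower on every array of 50 µg/L (-0.89, adjusted p = 0.0928), and lfng changed by 0.08 (adjusted p = 0.915), negative when array medians were set equal. The mesoderm gene tbxta changed by 0.47 (95% interval -0.21 to 1.16) and myf5 by -0.10 (-0.83 to 0.62), and the enveloping layer keratin krt4 by -0.02 (-0.54 to 0.49), the last with a positive sign under quantile normalization.

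**Figure D5:**
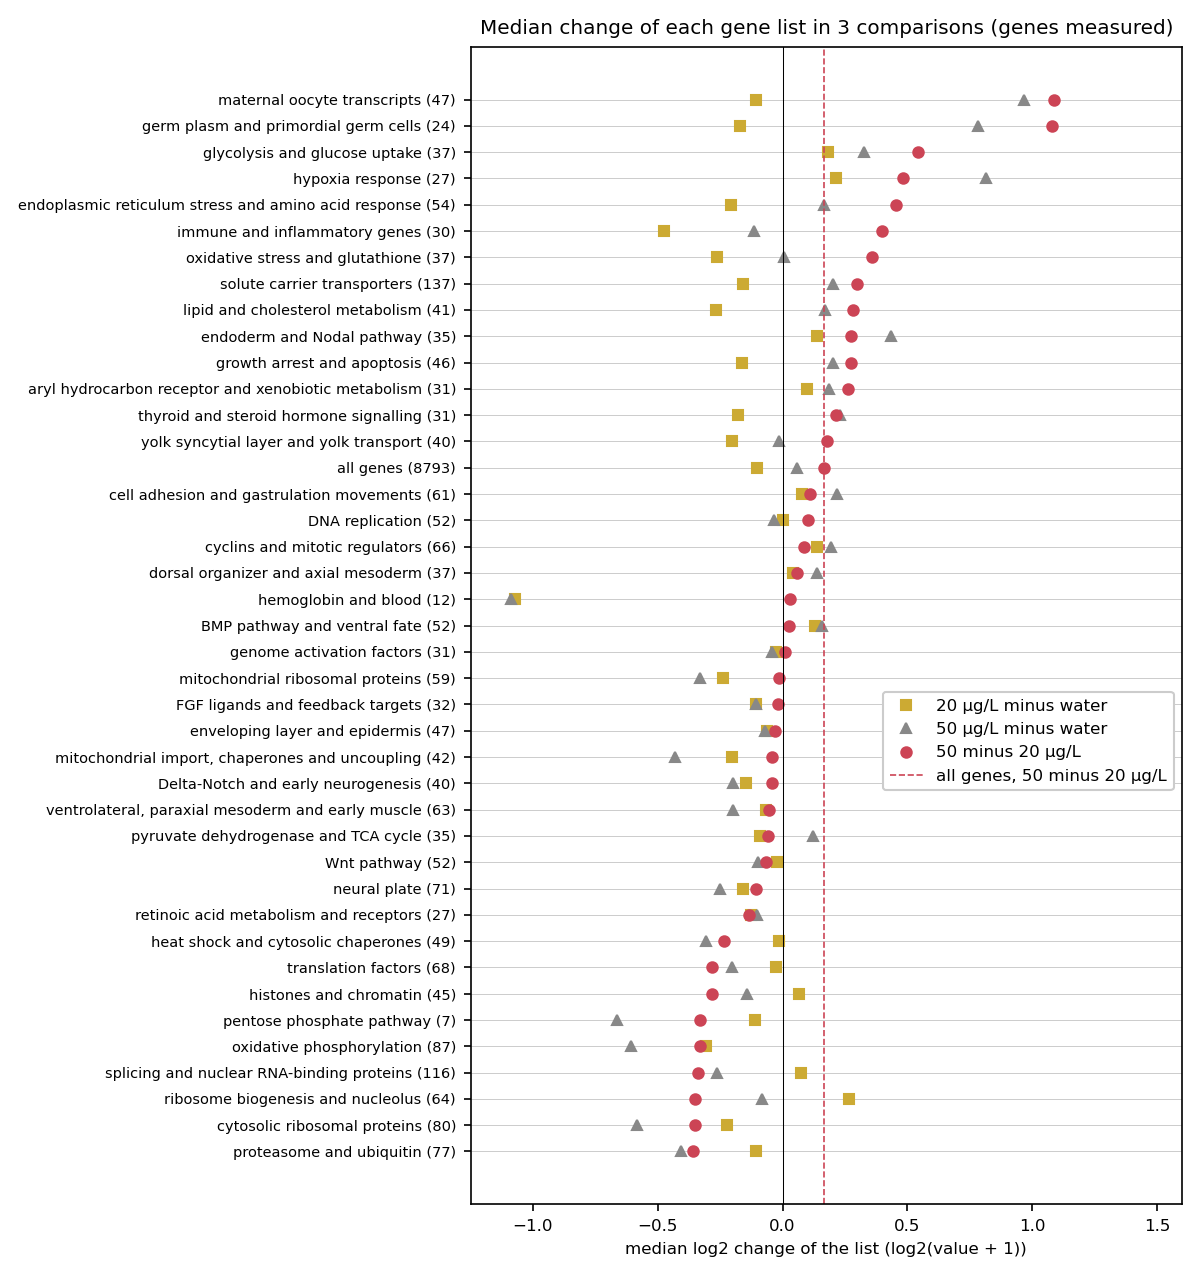
Median log2 change of each of the 40 gene lists and of all genes (rows, with the number of genes measured) from 20 to 50 µg/L (circles), from water to 20 µg/L (squares) and from water to 50 µg/L (triangles). The dashed line is the median of all genes from 20 to 50 µg/L, 0.17, and the maternal and germ plasm lists lie farthest to its right. With array medians set equal, that median was -0.21 and the maternal and germ plasm medians were 0.71 and 0.70.

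The remaining lists had 0 calls between the doses apart from slc16a3b among 137 solute carriers (against 0.694% of all genes, median 0.30, and -0.08 with array medians set equal). They were the FGF, Wnt, retinoic acid, adhesion, ventrolateral mesoderm, enveloping layer, yolk syncytial layer, lipid, hormone, immune and blood lists, with medians between -0.14 (retinoic acid) and 0.40 (immune genes, 11 of 30 of them under the background level on all 6 exposed arrays). With array medians set equal, only the immune list kept a positive median among these 11. In the enveloping layer list the claudin gene cldng was called by 1 of its 4 probe sets, not the brightest one, which rose by 2.69 (adjusted p = 0.016) from 521, 552 and 443 at 20 µg/L and 5026, 3710 and 1832 at 50 µg/L.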

How the data were processed

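The deposited values are intensity values on a linear scale, 1 per probe set and array, which the authors made with GCOS and MAS5, per the submitters' processing notes. Software versions were not given in the sources. Each array held 15617 probe sets, and its mean after trimming 2% at each end was about 500, as the deposited values show. Arrays numbered 3 carry more decimals than the rest, and this format was tried as a batch. There were 0 columns of other samples.

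From these values log2(value + 1) was computed for the 15502 probe sets left without 115 control probe sets, with no filter on dim values. A single model over all 9 arrays gave the contrasts of group means (limma 3.58.1 under R 4.3.3, eBayes with an intensity trend, two-sided). P-values were adjusted by Benjamini-Hochberg over all 15502 probe sets, with a threshold of 0.05, and the code was tested on simulated data. Fold changes are on the log2(value + 1) scale. For dim genes they rest on values under the background level and can be far larger than folds with dim values raised. For bin1b the 2 folds were 19.7 and 1.45. "At least N-fold" is given where all 3 arrays of the lower dose were under the tag control level, after values below that level were raised to it. With 3 arrays in each group, the number of arrays sets the precision.

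Gene symbols came from the platform annotation: 10802 probe sets matched 1 gene, 135 several and 4680 none, for 8793 genes. In the lists the brightest probe set stood for its gene. The members, the 40 lists and the tests were chosen with earlier results of these data known. Genes named are the 12 largest rises and falls among called probe sets with 1 symbol and no overlap, up to 6 called genes of each list in each direction, 36 genes given by name, the marker genes, and the 2 brightest genes of lists with no call. The last were used for 6 such lists, chosen after the values were seen. Outside this rule patl2, pabpn1l, fbxo43, fmn2b, gtf3ab, cldng, trmt61a and ndel1b were also named. The planned promoter motif search was not run, no sequence is shown and no set test was made. Alternatives changed the offset, dim values, scaling, array weights, trend, blocks and arrays used.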

Additional observations from a re-analysis of the deposited data

How the results depend on the processing

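Between the doses, the 77 probe sets that rose and 2 that fell became 129 and 3 when the dimmest 40% of probe sets were dropped, 129 up with an offset of 16, 168 up with an offset of 32, 497 and 56 with dim values raised, 262 and 25 with only the 6 exposed arrays, 44 up with quantile normalization, 13 and 1 with array medians set equal, 601 and 148 with array weights, 618 and 170 with only the arrays deposited with 1 decimal, and 0 and 0 by limma with no intensity trend, where 1911 had an unadjusted p under 0.05. Without 1 array, 1 to 278 rose and 0 to 27 fell. Of the 79 calls, 42 remained with quantile normalization, 14 with array medians set equal and 74 with dim values raised. The labels do not say whether the replicate numbers pair the arrays. Deviations of same-numbered arrays of the 2 doses from their group means correlated at -0.03, -0.01 and 0.05. With same-numbered water arrays the correlations lay between -0.06 and 0.11. Deviations from means of 3 arrays cannot decide whether the numbers pair them. A replicate block gave 52 up and 1 down, with 51 of the 79 calls kept, and only the arrays numbered 3 correlated best with their own number. Of the called genes followed through each setting, hsd3b7, zgc:114123, oxr1b, slbp2, tomm40, slc16a3b and birc5b did not pass with the replicate block. With the format of the deposited values as a block there were 93 calls, 75 of the 79 among them. For 20 µg/L against water, 54 rose and 6 fell with dim values raised and 2 and 15 with the 1-decimal arrays; without 1 array 0 to 1 rose and 0 to 3 fell. For 50 µg/L against water, 710 rose and 207 fell with dim values raised, 111 and 90 with array medians set equal, 539 and 178 with array weights, 0 and 0 with no trend, and 96 fell when the dimmest 40% were dropped; without 1 array 8 to 389 rose and 0 to 143 fell. The 10 maternal genes that rose became 19 with dim values raised, 18 with the 6 arrays, 22 with weights, 17 with the 1-decimal arrays and 0 with no trend, and 1 to 14 without 1 array (0 fell in each); the median of 1.09 over all 47 genes of the list was 0.71 with array medians set equal and 0.93 to 1.13 without 1 array. Among named genes the sign turned for genes with changes near 0. With array medians set equal id1 was -0.17, lfng -0.29 and gapdh -0.14. With quantile normalization aldoaa was 0.25, pou5f3 0.14 and krt4 0.23. With array weights sox17 was 0.027 and krt4 0.0008147. With the 1-decimal arrays lfng was -0.045, aldoaa 0.004195, sox17 0.19 and myf5 0.31. Without 1 array lfng ranged from -0.086 to 0.26, pou5f3 from -0.30 to 0.076, sox17 from -0.36 to 0.14, krt4 from -0.10 to 0.067 and myf5 from -0.29 to 0.10. The cause of these changes was not tested. Signals near the tag control level limit what can be read from dim genes.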
